A study of Arabidopsis thaliana with 6 samples.

Results

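The 10 cellulose synthase genes of Arabidopsis thaliana, CESA1 to CESA10, were followed in mdf-1 and wild-type (WT) seedlings. They were found by their gene identifiers among the 32998 genes of the deposited count table, and all 10 were present. The mdf-1 line carries a T-DNA insertion in MDF, which encodes a splicing factor, and both genotypes are in the Columbia background. Complete seedlings were collected after 12 days on agar plates with sucrose, under long days, and 3 biological replicates per genotype each gave 1 library. Only this 1 insertion line was sequenced, so its effect was not compared with a second allele in these libraries.

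Cellulose is made at the plasma membrane by rosette-shaped complexes whose catalytic subunits are CESA proteins. The complex of growing cells, which builds the primary wall, holds CESA1, CESA3 and a subunit of the CESA6 type, a position that CESA2, CESA5 or CESA9 can also take. CESA10 is the closest relative of CESA1. A separate complex of CESA4, CESA7 and CESA8 builds the thick secondary wall of xylem vessels and fibres, and loss of any of its subunits gives collapsed, irregular xylem.

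The 300 bases upstream of the annotated start of the secondary wall genes are shown because the promoters of such genes are known to carry short sites read by xylem regulators. The SMRE is bound by MYB46 and MYB83. It was searched on both strands as the 7 letters ACCNANN, with A or T for the first N, A or C for the middle N and C or T for the last N. The TERE, an element of tracheary element genes, was searched by its 11-base consensus on both strands. The windows were read 5′ to 3′ from the RefSeq TAIR10.1 genome, end at the base before the annotated start and hold no transcribed sequence of the gene in that annotation. Capitals mark SMRE and TERE matches. The window of CESA4 lies at chr5:17714090-17714389 on the plus strand, that of CESA7 at chr5:5741501-5741800 on the minus strand and that of CESA8 at chr4:10316887-10317186 on the minus strand.
CESA4: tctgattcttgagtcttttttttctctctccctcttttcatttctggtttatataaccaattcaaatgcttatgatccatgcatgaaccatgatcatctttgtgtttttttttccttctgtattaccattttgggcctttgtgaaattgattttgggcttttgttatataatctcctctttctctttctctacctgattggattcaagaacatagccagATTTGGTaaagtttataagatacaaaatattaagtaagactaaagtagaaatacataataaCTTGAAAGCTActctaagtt
CESA7: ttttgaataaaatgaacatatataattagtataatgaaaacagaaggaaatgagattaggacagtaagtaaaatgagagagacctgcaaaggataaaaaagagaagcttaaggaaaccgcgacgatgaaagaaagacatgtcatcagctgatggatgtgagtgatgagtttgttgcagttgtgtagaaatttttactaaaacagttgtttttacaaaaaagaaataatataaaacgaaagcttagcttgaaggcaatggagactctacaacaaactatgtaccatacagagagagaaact
CESA8: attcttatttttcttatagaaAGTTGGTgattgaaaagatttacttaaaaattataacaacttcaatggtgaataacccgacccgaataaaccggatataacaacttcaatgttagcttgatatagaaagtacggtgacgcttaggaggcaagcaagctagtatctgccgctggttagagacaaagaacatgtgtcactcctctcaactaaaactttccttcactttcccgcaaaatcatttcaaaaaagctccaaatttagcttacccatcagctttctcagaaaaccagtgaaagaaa

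CESA4 held 1 SMRE match, 81 to 75 bases before the start, and 1 TERE match, 20 to 10 bases before it. CESA8 held 1 SMRE match, 279 to 273 bases before the start, and CESA7 held neither motif. Among the primary wall genes, CESA5 held 2 SMRE matches, CESA1 and CESA9 held 1 each, and the windows of CESA2, CESA3, CESA6 and CESA10 held none. SMRE letters were found in 33.9% of 27419 windows of the same length and TERE letters in 0.427%. The looser SNBE, the site of the VND and NST family of regulators, was found in 48.7% of the windows, with 2 matched positions each in CESA5, CESA7 and CESA8 and 1 each in CESA1, CESA3 and CESA10. One SNBE match of CESA5 reads on both strands and was counted as 1 position. No motif overlapped another in CESA4, CESA7 or CESA8. These matches describe letters in a window and say nothing of binding.

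All 9 CESA genes that passed the filter on low counts were lower in mdf-1 than in WT, and none was higher. The secondary wall genes CESA4, CESA7 and CESA8 were at 25.6% to 32.9% of their WT level, and the primary wall genes CESA1, CESA3, CESA5 and CESA6 were at 63.5% to 70.2%. CESA2 changed least, to 88.4% of WT. CESA10 was close to undetected in both genotypes and was not tested. Each call came from edgeR's quasi-likelihood test at a Benjamini-Hochberg adjusted p below 0.05 over all 22397 genes tested. In that test 33.9% of all genes were lower in mdf-1 and 33.5% were higher. The share was larger among genes of similar length. Of the 1103 tested genes with a length between the shortest and the longest CESA gene, 3347 to 4247 bases, 63.1% were lower and 12.2% higher. Shares over all genes tested that are given further below, for CESA genes and other lists, were not matched for length. The median log2 fold change was 0.01 over all genes tested and −0.33 over genes of CESA length, against −0.55 over the 6 tested primary wall genes and −1.64 over the 3 secondary wall genes. Because whole seedlings were sequenced, fewer cells of a type and less RNA per cell cannot be told apart.

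**Figure D1:**
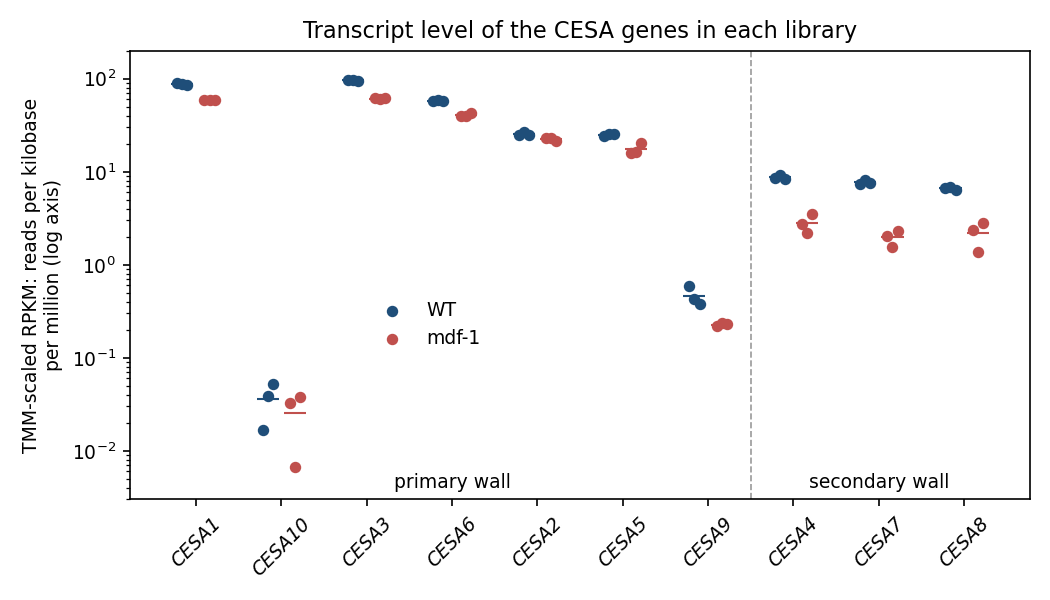
Level of each CESA gene in each library, as TMM-scaled RPKM (CPM per kilobase of gene) on a log axis, with WT in blue and mdf-1 in red. Each point is 1 of the 3 libraries of a genotype, and the short lines are the means. The points of the genotypes are apart for every gene except CESA10, with the widest gap at CESA4, CESA7 and CESA8.

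The libraries held 44738352 to 50088386 counts over genes. TMM scaling factors, which correct for the makeup of each library, were 1.04 to 1.06 in WT and 0.929 to 0.971 in mdf-1. Scaling by total counts in place of TMM moved the median log2 fold change over all tested genes by −0.145, and then 41.7% of genes were lower and 24.8% higher. MDF itself (AT5G16780) had 3305, 3136 and 3435 counts in WT and 3443, 3465 and 3465 in mdf-1, a log2 fold change of 0.32. Reads on either side of the insertion are pooled in this count, so it does not check the genotype labels. Among markers of other tissues, 2 of 3 phloem, 2 of 3 root tip and 3 of 3 root hair markers were called lower, where 33.9% of all genes tested were. Of the cambium markers, PXY was lower and WOX4 was higher, with log2 fold changes of −0.41 and 0.78. Of 3 leaf markers 1 was called higher and none lower, and seed and pollen markers did not pass the filter on low counts. Of these, the seed marker CRA1 had 201 counts in WT replicate 2 and 1 to 6 in every other library.

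CESA1 (AT4G32410, chromosome 4, 15640490 to 15646844, minus strand in TAIR10, with 14 exons) encodes a subunit that the primary wall complex cannot do without. It had 380.1, 375 and 364 CPM (counts relative to the TMM-scaled library total) in WT replicates 1 to 3 and 249, 248 and 249 CPM in mdf-1 replicates 1 to 3. Every mdf-1 library was below every WT library, and the mdf-1 libraries differed by a factor of 1.00 from highest to lowest. The log2 fold change was −0.59 (SE 0.054, 95% confidence interval −0.71 to −0.46, edgeR adjusted p = 3.9e-05). CESA3 (AT5G05170, chromosome 5, 1530132 to 1535558, minus strand, 15 exons) encodes the other subunit with a fixed place in that complex. Its levels were 368, 374 and 365 CPM in WT and 239, 229.8 and 235 CPM in mdf-1. The groups were again apart, with a log2 fold change of −0.65 (SE 0.054, −0.78 to −0.53, edgeR adjusted p = 2.3e-05).

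CESA6 (AT5G64740, chromosome 5, 25881033 to 25886728, plus strand, 13 exons) encodes the main subunit of the third position. It had 238, 245 and 239 CPM in WT and 164, 165 and 178 CPM in mdf-1, where replicate 3 was the highest. The log2 fold change was −0.51 (SE 0.056, −0.64 to −0.38, edgeR adjusted p = 9.4e-05). CESA5 (AT5G09870, chromosome 5, 3072870 to 3078416, plus strand, 13 exons) can stand in for CESA6 and also serves seed coat mucilage. Its levels were 99.8, 106 and 105 CPM in WT and 65.9, 67.7 and 84.9 CPM in mdf-1. Replicate 3 of mdf-1 again lay above the other mdf-1 libraries, by a factor of 1.29 over the lowest, but below every WT library. The log2 fold change was −0.51 (SE 0.096, −0.73 to −0.29, edgeR adjusted p = 0.00185).

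CESA2 (AT4G39350, chromosome 4, 18296388 to 18302192, plus strand, 13 exons) is a further stand-in for CESA6. It had 105, 113 and 105 CPM in WT and 98.0, 96.7 and 91.2 CPM in mdf-1, so that the groups did not overlap but came close. The log2 fold change was −0.18 (SE 0.055, −0.31 to −0.05, edgeR adjusted p = 0.0198), above the median of genes of CESA length. This call was lost without WT replicate 2, the highest library, with a log2 fold change of −0.14 and an edgeR adjusted p of 0.0778. In place of TMM, total counts gave −0.32 for CESA2, a difference from TMM about the size of the shift of all genes. The 95% confidence interval of CESA2 did not overlap that of CESA1, CESA3 or CESA6, while it overlapped that of CESA5 over a narrow stretch.

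The remaining primary wall genes were scarce. CESA9 (AT2G21770, chromosome 2, 9284391 to 9289744, plus strand, 13 exons), known for its part in the seed coat, had 115, 85 and 80 counts in WT and 37, 39 and 40 counts in mdf-1. The groups did not overlap, and the log2 fold change was −1.03 (SE 0.22, −1.54 to −0.52, edgeR adjusted p = 0.00353). CESA10 (AT2G25540, chromosome 2, 10866822 to 10872243, minus strand, 14 exons) had 3, 7 and 10 counts in WT and 5, 1 and 6 counts in mdf-1. Those groups overlapped, and a difference in CESA10 was not detectable at this depth.

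CESA4 (AT5G44030, chromosome 5, 17714390 to 17719723, plus strand, 11 exons), the gene whose upstream window held both the SMRE and the TERE letters, had 32.6, 34.9 and 31.3 CPM in WT. In mdf-1 it had 10.2, 8.35 and 13.1 CPM. The highest mdf-1 library was far below the lowest WT library, and the log2 fold change was −1.64 (SE 0.15, −1.99 to −1.28, edgeR adjusted p = 7.8e-05). CESA7 (AT5G17420, chromosome 5, 5736630 to 5741500, minus strand, 12 exons), with neither motif, had the largest change of the family. Its levels were 24.9, 28.0 and 25.5 CPM in WT and 6.91, 5.33 and 7.83 CPM in mdf-1. The groups did not overlap, and the level in mdf-1 was 3.90-fold lower, a log2 fold change of −1.96 (SE 0.13, −2.27 to −1.66, edgeR adjusted p = 1.1e-05). CESA8 (AT4G18780, chromosome 4, 10312624 to 10316886, minus strand, 12 exons) had 22.5, 23.0 and 21.4 CPM in WT and 7.90, 4.64 and 9.42 CPM in mdf-1. Among the tested CESA genes it varied most between the mdf-1 libraries, by a factor of 2.03. Its log2 fold change was −1.60 (SE 0.24, −2.17 to −1.04, edgeR adjusted p = 0.00114).

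All 3 secondary wall genes were lowest in mdf-1 replicate 2 and highest in mdf-1 replicate 3. Without mdf-1 replicate 2, the CESA8 log2 fold change was −1.36 and that of CESA7 was −1.82. The confidence interval of each secondary wall gene lay below that of each primary wall gene, except that the intervals of CESA4 and CESA8 overlapped that of CESA9. In all, 8.72% of tested genes were called lower with a log2 fold change below −1.5, as CESA4, CESA7 and CESA8 were. A log2 fold change below −1, as CESA9 had too, was called in 13.8%. Every mdf-1 library lay below every WT library in 37% of tested genes, as it did in the 9 CESA genes tested.

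**Figure D2:**
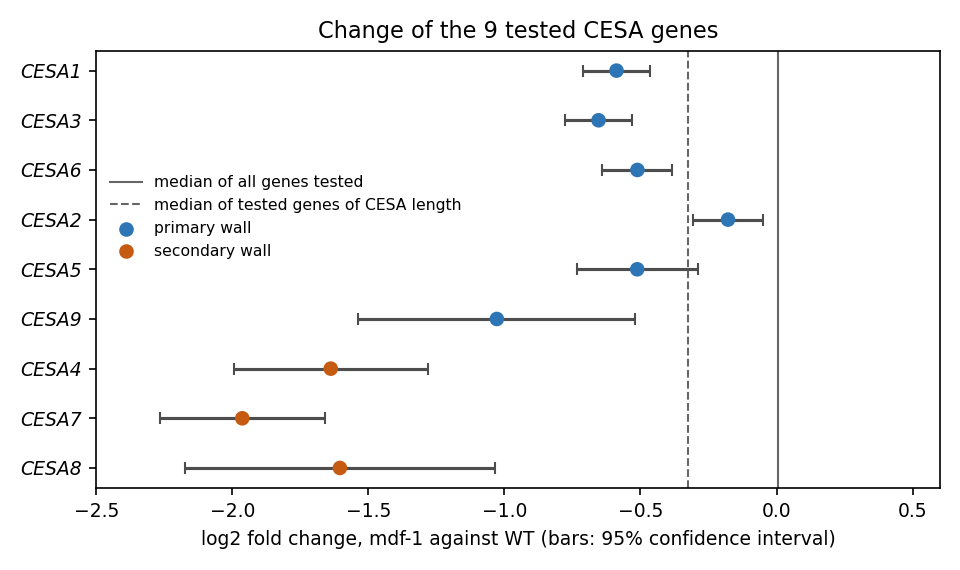
Change of the 9 tested CESA genes, as log2 fold change of mdf-1 against WT from 3 libraries per genotype, with 95% confidence intervals from edgeR. The grey lines are the median over all genes tested (0.01, solid) and over tested genes of CESA length (−0.33, dashed). CESA4, CESA7 and CESA8 lie between −1.60 and −1.96, and CESA2 is the gene nearest to 0.

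Levels were compared between genes per kilobase of gene, as TMM-scaled CPM divided by the gene length in kilobases (RPKM). The order in WT was CESA3 (96.5 ± 1.22 RPKM, SD, n = 3), CESA1 (88.4 ± 1.91), CESA6 (57.7 ± 0.937), CESA2 (25.4 ± 1.04), CESA5 (25.1 ± 0.864), CESA4 (8.73 ± 0.491), CESA7 (7.68 ± 0.479), CESA8 (6.66 ± 0.237), CESA9 (0.466 ± 0.106) and CESA10 (0.036 ± 0.018). The only neighbours in that order whose libraries overlapped were CESA2 and CESA5. In mdf-1 the order was CESA3 (61.3 ± 1.20 RPKM, SD, n = 3), CESA1 (58.8 ± 0.119), CESA6 (40.5 ± 1.84), CESA2 (22.4 ± 0.857), CESA5 (17.6 ± 2.54), CESA4 (2.80 ± 0.636), CESA8 (2.19 ± 0.729), CESA7 (1.97 ± 0.371), CESA9 (0.228 ± 0.00838) and CESA10 (0.026 ± 0.017). There CESA2 and CESA5 no longer overlapped, while CESA4, CESA8 and CESA7 did. By their means the primary wall genes stood in the same order in both genotypes. CESA7 and CESA8 differed in order by their means, but in mdf-1 replicate 2 CESA7 (1.57 RPKM) was above CESA8 (1.39 RPKM), as in WT.

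Summed over the 10 genes, CESA transcripts came to 317 ± 5.49 RPKM in WT and 208 ± 5.48 RPKM in mdf-1 (SD, n = 3). The primary wall genes came to 294 ± 4.38 RPKM in WT and 201 ± 3.81 RPKM in mdf-1, and the secondary wall genes to 23.1 ± 1.12 and 6.96 ± 1.72 RPKM. The secondary wall genes made up 7.19%, 7.55% and 7.12% of CESA transcripts in WT replicates 1 to 3, and 3.43%, 2.55% and 4.02% in mdf-1 replicates 1 to 3. The mean share was 7.28% ± 0.229 in WT and 3.33% ± 0.741 in mdf-1 (SD, n = 3), and the groups did not overlap. No test was made of this share, since it is a score over the members.

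**Figure D3:**
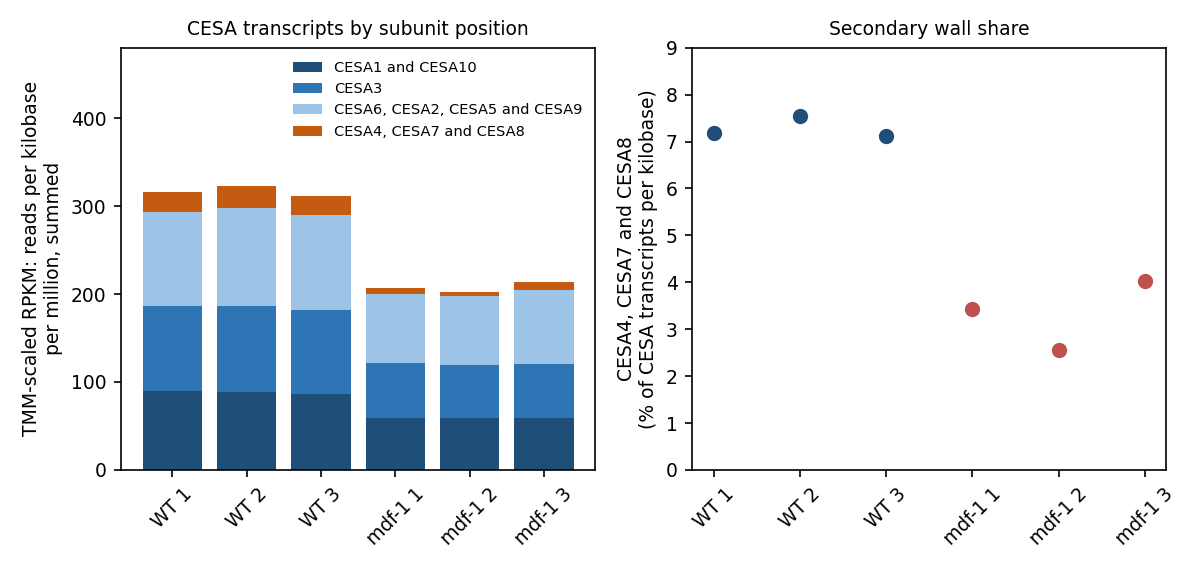
CESA transcripts in each library, WT 1 to 3 and mdf-1 1 to 3. The left bars sum TMM-scaled RPKM over the genes of each subunit position, and the right points give CESA4, CESA7 and CESA8 as a percent of all CESA transcripts. The sums lie near 317 in WT and 208 in mdf-1, and the secondary wall share is 7.12% to 7.55% in WT and 2.55% to 4.02% in mdf-1.

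Within the primary wall set, the shares of the subunit positions differed by at most 3.17 percentage points between the genotypes. CESA3 made up 32.9% ± 0.0749 of primary wall CESA transcripts in WT and 30.5% ± 0.675 in mdf-1 (SD, n = 3). The share of CESA1 with CESA10 was 30.1% ± 0.534 in WT and 29.3% ± 0.501 in mdf-1, with libraries that came close but did not overlap (29.8% to 30.7% and 28.7% to 29.7%). The CESA6 position, which is the sum of CESA2, CESA5, CESA6 and CESA9, made up 37.0% ± 0.542 in WT and 40.2% ± 1.06 in mdf-1, and its libraries did not overlap either. Among the genes of that position, CESA2 made up 23.4% ± 0.449 in WT and 27.9% ± 2.22 in mdf-1, and CESA6 made up 53.1% ± 0.423 and 50.1% ± 0.0915. CESA5 made up 23.1% ± 0.489 in WT and 21.7% ± 2.14 in mdf-1, within the spread of the mdf-1 libraries. Within the secondary wall set, CESA7 made up 33.3% ± 0.900 in WT and 28.6% ± 1.78 in mdf-1, and the shares of CESA4 and CESA8 differed by less than 2 SD of the mdf-1 libraries.

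Reads could in principle be shared between such related genes. Coding sequences were most alike for CESA5 and CESA6 (86.0% identical bases), CESA2 and CESA9 (84.7%) and CESA1 and CESA10 (84.1%). The least alike pair was CESA4 and CESA10 (68.0%). Windows of 50 bases were compared in 1 transcript per CESA gene, the one with the longest coding sequence. Of all these windows, 1 occurred in more than 1 CESA gene, and it was shared by CESA5 and CESA6. Other transcripts and genes outside the family were not searched.

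The nearest profiles over the 6 libraries were sought by the root mean square distance between log2 CPM values, each gene centred on its own mean. The genes nearest to the mean of CESA1, CESA3 and CESA6 were PRP8A (AT1G80070, distance 0.012), which encodes a core protein of the spliceosome, AT1G09620 (0.015), annotated as a cytoplasmic leucine-tRNA ligase, and PKL (AT2G25170, 0.021), a chromatin remodelling factor. Their log2 fold changes were −0.58, −0.59 and −0.56. The genes nearest to the mean of CESA4, CESA7 and CESA8 were AT1G17285 (0.065), annotated as an unknown protein, FLA11 (AT5G03170, 0.074), a fasciclin-like arabinogalactan protein of secondary walls, and TBL1 (AT3G12060, 0.075). These were lower by log2 fold changes of −1.75, −1.77 and −1.78. The distance takes in the difference between genotypes, so genes with a like fold change come out near each other.

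Transcripts of proteins that work beside the CESA subunits went in both directions. Of 13 tested genes for partners of the complex, 7 were lower, 1 was higher and 5 were not called, against 33.9% lower and 33.5% higher among all genes tested, with a median log2 fold change of −0.31. CSI1, which ties the complex to microtubules, had 179, 184 and 178 CPM in WT and 65.9, 65.4 and 72.1 CPM in mdf-1. The groups were far apart, with a log2 fold change of −1.41 (SE 0.058, edgeR adjusted p = 1.7e-06). Its relative CSI3 fell by 1.23 on the log2 scale. CC2, a companion protein that helps the complex under salt stress, had a log2 fold change of −1.45, whereas CC1, its close relative and the 1 gene of the list called higher, had a log2 fold change of 0.72 and was named after its values were seen. In CC1 every mdf-1 library (144 to 169 CPM) was above every WT library (92.6 to 95.3 CPM). The most abundant partners per kilobase were CTL1, a chitinase-like protein, and KOR1, a membrane-bound endoglucanase, with log2 fold changes of 0.07 (edgeR adjusted p = 0.315) and −0.02 (edgeR adjusted p = 0.783). Under total counts the sign of CTL1 turned and KOR1 was called lower (−0.16, edgeR adjusted p = 0.0351). CSI1 and CSI3 are 7205 and 7274 bases long, longer than any CESA gene. The other partners named here are shorter than any CESA gene, with CC2 at 1416 bases, CC1 at 1737, CTL1 at 1905 and KOR1 at 2540. The part of gene length in these changes was not tested.

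UDP-glucose, the substrate of cellulose synthases, is supplied by sucrose synthases and by invertases with UDP-glucose pyrophosphorylases. All 10 genes of this list were called, 5 lower and 5 higher, against 33.9% lower and 33.5% higher among all genes tested, with a median log2 fold change of 0.04. The sucrose synthase gene SUS4 had 8.49, 7.92 and 6.62 CPM in WT and 1.13, 0.909 and 1.34 CPM in mdf-1, a log2 fold change of −2.77 (SE 0.18, edgeR adjusted p = 7.8e-06). SUS1, its closest relative, went the other way, with 37.2, 37.5 and 37.0 CPM in WT and 78.1, 69.2 and 63.9 CPM in mdf-1. No library of one group reached the other in either gene, and the log2 fold change of SUS1 was 0.92 (SE 0.075, edgeR adjusted p = 2.2e-05). SUS3 was lower by a log2 fold change of −0.77. The most abundant genes of the list were AT3G03250, a UDP-glucose pyrophosphorylase gene (0.35), and CINV1, a cytosolic invertase gene (−0.33).

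Other secondary wall genes were mostly lower. Of 16 tested genes for xylan, lignin, cellulose assembly and wall glycoproteins, 13 were lower, 1 was higher and 2 were not called. That stood against 33.9% lower and 33.5% higher among all genes tested, and the list had a median log2 fold change of −1.19. FLA12, a fasciclin-like protein, had 3.98, 4.53 and 4.32 CPM in WT and 0.938, 1.05 and 0.930 CPM in mdf-1. That was the largest change of the list, a log2 fold change of −2.13 (SE 0.15, edgeR adjusted p = 1.1e-05). The xylan genes IRX15-L and IRX15 had log2 fold changes of −1.83 and −1.79. The xylan genes with the highest level per kilobase were IRX14 (log2 fold change −0.07, edgeR adjusted p = 0.438, but −0.21 and 0.0314 under total counts) and FRA8 (0.54, edgeR adjusted p = 0.0208). The FRA8 call was lost without mdf-1 replicate 2, WT replicate 2 or WT replicate 3 (edgeR adjusted p = 0.0577, 0.0699 and 0.0653) and under total counts (0.0528).

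Regulators of the secondary wall were tested where their counts allowed. Of 18 listed genes, 15 were tested, 10 were lower, 1 was higher and 4 were not called, against 33.9% lower and 33.5% higher among all genes tested. Their median log2 fold change was −0.87, and 8 to 11 were lower when single libraries were left out, with 11 without mdf-1 replicate 3. In those fits 30.1% to 34.7% of all genes tested were lower, with the highest share without mdf-1 replicate 3. NST1, NST2 and NST3, which drive fibre walls, were too low to test. MYB46, which binds the SMRE, had 3.28, 2.84 and 2.64 CPM in WT and 1.08, 1.08 and 1.66 CPM in mdf-1, a log2 fold change of −1.20 (SE 0.21, edgeR adjusted p = 0.0013). Its close relative MYB83 had 1.31, 1.51 and 1.60 CPM in WT and 0.539, 0.407 and 0.681 CPM in mdf-1, a log2 fold change of −1.44 (SE 0.25, edgeR adjusted p = 0.00107). Neither gene overlapped between the genotypes.

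Of the VND genes, which switch on the vessel programme, VND3 (−1.65), VND4 (−0.87) and VND5 (−0.95) had negative log2 fold changes that were called. VND2 (0.34, edgeR adjusted p = 0.0959), VND6 (−0.36, edgeR adjusted p = 0.148) and VND7 (−0.49, edgeR adjusted p = 0.293) were not called. VND1 was higher, with 1.77, 1.35 and 1.53 CPM in WT and 3.23, 3.33 and 3.40 CPM in mdf-1, a 2.14-fold higher level (edgeR adjusted p = 3.9e-04). Further downstream, MYB103 (−1.20), KNAT7 (−1.14), SND2 (−1.03), MYB63 (−0.60) and SND3 (−0.53) were called lower by their log2 fold changes. MYB58, named after its values were seen, was not called (log2 fold change −0.04, edgeR adjusted p = 0.929). Its mdf-1 replicate 3 (1.47 CPM) lay above every WT library (0.811 to 1.21 CPM). The calls of MYB63 and SND3 depended on single libraries. MYB63 was lost without mdf-1 replicate 2 or any 1 of the WT libraries (edgeR adjusted p = 0.0591 to 0.0902). SND3 was lost without mdf-1 replicate 1 or 2, or WT replicate 1 or 3 (edgeR adjusted p = 0.0579 to 0.101).

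**Figure D4:**
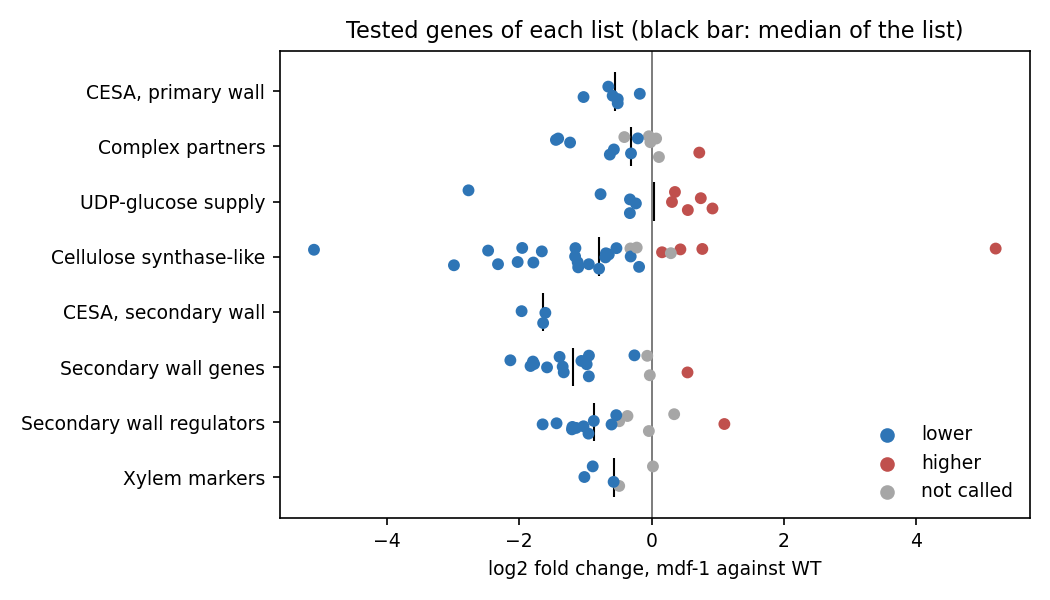
Change of the tested genes of each list, as log2 fold change of mdf-1 against WT. Each point is 1 gene, in blue where called lower, red where called higher and grey where not called, with a black bar at the median of the list. The medians are −0.55 and −1.64 for the primary and secondary wall CESA genes, −1.19 for other secondary wall genes and 0.04 for UDP-glucose supply.

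Markers of differentiating xylem were read as well, since CESA4, CESA7 and CESA8 are mainly expressed in that tissue. Of 5 markers, 3 were lower and 2 were not called, against 33.9% lower and 33.5% higher among all genes tested, and no marker was at 0. Their summed level was 174 to 181 CPM in WT and 84.7 to 115 CPM in mdf-1, and that of CESA4, CESA7 and CESA8 was 78.2 to 85.9 CPM in WT and 18.3 to 30.4 CPM in mdf-1. Most of the marker sum came from XCP1 and XCP2. XCP1 and XCP2, proteases of vessel cell death, had log2 fold changes of −1.02 and −0.89, the metacaspase gene MC9 one of −0.57, and BFN1, a nuclease gene, one of 0.02 (edgeR adjusted p = 0.894). VND7, the master switch of vessel formation, is also counted among the regulators above. It had 1.91, 2.16 and 1.70 CPM in WT and 1.03, 0.742 and 2.31 CPM in mdf-1. Its mdf-1 replicate 3 lay above every WT library and the other mdf-1 libraries below. The log2 fold change was −0.49 (edgeR adjusted p = 0.293), and −1.12 without mdf-1 replicate 3 (edgeR adjusted p = 0.00294). BFN1 too was above every WT library in mdf-1 replicate 3, at 9.44 CPM against 7.75 to 8.03 CPM in WT. The part of xylem amount in the lower CESA4, CESA7 and CESA8 levels was not tested. The part of gene length, which went with lower calls among the 1103 genes of CESA length, was not tested either.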

How the data were processed

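RNA of complete seedlings was made into libraries with the NEBNext Ultra RNA kit and sequenced as paired reads on an Illumina NovaSeq. Per the submitters' processing notes, reads were cleaned with fastp, aligned to TAIR10 with HISAT2 and counted with featureCounts. Versions, strand setting and the treatment of shared reads are not given in the sources used here. The deposited counts are raw numbers of reads per gene in each library, and all tests started from them. The deposited FPKM values served only for an alternative value of the secondary wall share. The deposited size-factor-scaled values and the authors' DESeq2 comparison (fold changes and p-values) were not used.

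Tests used edgeR 4.0.16 under R 4.3.3 (filterByExpr, TMM, robust glmQLFit and glmQLFTest, genotype as the only term) and limma 3.58.1. P-values were adjusted over all genes tested, and a gene was called at an adjusted p below 0.05. A difference means mdf-1 minus WT. The 3 libraries of a genotype are biological replicates, grouped by the labels. No duplicate libraries were found (chi-square per degree of freedom 7.17 or more between replicates). The mdf-1 replicates differed more from each other (23.2 to 58.8) than the WT replicates did (7.17 to 12.1). DESeq2 1.42.0 was an alternative. The steps were tested on simulated data of 22222 genes: the test called 85 of 100 genes with a log2 fold change of 1 and 99 of 100 with one of 2, and made 20 false calls among 22022 unchanged genes. Only 200 genes were changed there, a far smaller part than was called in the data. Changes as small as those of CESA1, CESA2, CESA3, CESA5 and CESA6 were not simulated. Levels per kilobase used the deposited gene lengths. Promoters, exons and coding identity came from the TAIR10.1 annotation with Python 3.11.15 and Biopython 1.88. Of 32548 genes matched by identifier, 32532 had the same start and end as in the deposited table. Figures were drawn with matplotlib 3.10.9.

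The CESA genes, the lists and the tests were chosen with earlier results of these data known. All 10 CESA genes were named. From each other list, the 3 tested genes with the largest absolute log2 fold change and the 2 with the highest level per kilobase were named, with all called regulators and the 3 nearest profiles of CESA1, CESA3 and CESA6 and of CESA4, CESA7 and CESA8. Any other gene was named after its values were seen. Alternatives were DESeq2, scaling by RLE, the upper quartile or total counts, a looser filter (none) and a stricter one (10 or more counts in each library), the replicate number as a block, an adjusted p below 0.01 and the omission of each library.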

Additional observations from a re-analysis of the deposited data

How the results depend on the processing

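All 9 tested CESA genes kept their direction under every alternative. The count called lower was 9 under every alternative except an adjusted p below 0.01 and the fit without WT replicate 2, both of which gave 8. The median log2 fold change of the tested CESA genes moved from −0.65 to −0.70 with upper-quartile scaling and to −0.80 with total counts, and leaving out each library gave −0.67 to −0.63. The secondary wall share differed by −3.95 percentage points, and by −4.29 to −3.56 without each library. The 1 secondary wall gene called higher fell to 0 with total counts and at an adjusted p below 0.01, and leaving out single libraries gave 0 to 1. Regulators called lower numbered 6 at an adjusted p below 0.01, and cellulose synthase-like genes called higher numbered 2 under the filter of 10 counts per library. With that filter 33.2% of all genes tested were higher. The log2 fold change of CTL1, 0.07, turned to −0.076 with total counts, and that of KOR1 was −0.038 to 0.0050 when single libraries were left out, without a call in any of these leave-one-out fits, while total counts gave −0.162 for KOR1, called lower (edgeR adjusted p = 0.0351). Partners of the complex called lower then numbered 9 against 7, where 41.7% of all genes tested were lower with total counts, against 33.9% with TMM. BFN1, at 0.02, gave −0.028 with upper-quartile scaling, −0.121 with total counts, −0.00025 with the stricter filter and −0.127 to 0.113 when single libraries were left out, never called. The difference in secondary wall share was −3.95 percentage points from the deposited FPKM values as well.

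Same-numbered mdf-1 and WT libraries deviated from their group means with correlations of 0.04, −0.003 and 0.08. Libraries with unlike numbers gave −0.09 to 0.05. All of these values were small, and they cannot settle whether the numbers pair the samples. A replicate block gave 7441 genes lower against 7585 without it and left the CESA median log2 fold change at −0.65, with 9 CESA genes called lower. Depth limits CESA10, with at most 10 counts in a library, and CESA9.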

Other observations

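The cellulose synthase-like genes, relatives of the CESA genes of which some make hemicelluloses, were read in the same fit. Of 30 listed genes, 27 were tested, 20 were lower, 4 were higher and 3 were not called, against 33.9% lower and 33.5% higher among all genes tested, with a median log2 fold change of −0.79. CSLG2 had 17, 21 and 7 counts in WT and 662, 631 and 102 counts in mdf-1, where replicate 3 was far below the other libraries of its group and still above every WT library. Its log2 fold change was 5.20 (SE 0.99, edgeR adjusted p = 0.00626). CSLB5 had 102, 85 and 112 counts in WT and 3, 4 and 0 counts in mdf-1, and its log2 fold change of −5.10 (edgeR adjusted p = 4.2e-05) rests on these few reads. Without mdf-1 replicate 2 the log2 fold change of CSLB5 was −5.71. CSLB2 was lower by a log2 fold change of −2.99, and by one of −3.60 without mdf-1 replicate 2. The most abundant genes per kilobase were CSLE1 (log2 fold change 0.29, edgeR adjusted p = 0.0651) and CSLB3 (0.77, edgeR adjusted p = 6.4e-04). The other genes called higher were CSLC4 and CSLB4, with log2 fold changes of 0.43 and 0.16, named after their values were seen. The CSLB4 call was lost with upper-quartile or total-count scaling, under either other filter, with DESeq2 and without mdf-1 replicate 2 or 3 or WT replicate 1 or 3 (adjusted p = 0.0517 to 0.848), and CSLE1 was called higher with a replicate block, with DESeq2 and without mdf-1 replicate 3 (adjusted p = 0.00169 to 0.0344). Sharing of reads among cellulose synthase-like genes was not measured.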
